A study of Mus musculus with 4 samples.

Results

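Insulin-producing cells of mouse islets cultured in 11.1 mM glucose were compared between 1 library with 1 mM imeglimin and 1 library with its DMSO vehicle. Islets came from wild-type C57BL6J male mice of 8 weeks and were cultured for 24 h before dispersal with Accutase and droplet capture. The labels do not give how many animals were pooled, and there is 1 library a condition, so no difference below has a replicate check and none carries a p-value. The series also holds the same pair at 3.9 mM glucose. Insulin cells were chosen by hormone transcripts alone: Ins1 and Ins2 together at least 4% of the unique molecular identifiers (UMIs) of a cell, Gcg under 2%, and Sst and Ppy each under 1%. This rule gave 5704 insulin cells with imeglimin and 5197 with vehicle, 10901 of the 15871 cells kept at 11.1 mM and of the 31792 kept in the series.

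Imeglimin is a tetrahydrotriazine glucose-lowering drug that acts on mitochondria and raises glucose-stimulated insulin secretion. The pancreatic beta cell takes up glucose through the transporter Slc2a2, oxidises it in mitochondria, closes potassium channels, and releases insulin from zinc-loaded granules when calcium enters. Its heavy secretory load makes it dependent on folding enzymes of the endoplasmic reticulum (ER) and on the integrated stress response, in which ATF4 and CHOP (encoded by Ddit3) adjust transcription when protein synthesis is strained. Metallothioneins are small proteins that bind zinc and copper, and their genes are switched on by metals through the factor MTF1.

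Insulin cells made up 67.7% of the kept cells with imeglimin (exact 95% interval 66.7 to 68.7) and 69.8% with vehicle (68.8 to 70.9). The libraries were alike in depth, with a median of 12755.5 UMIs and 3178 genes in an insulin cell with imeglimin and 13010 UMIs and 3200 genes with vehicle. The median mitochondrial share was 2.30% and 2.53%. The limit on insulin transcripts cut through few cells: 9 and 11 cells lay at 3 to 4% and 11 and 2 at 4 to 5%, in the same order. Of the 12 beta-cell markers, 11 were detected in the insulin cells with imeglimin and 12 with vehicle. Cells that reached a hormone limit but fitted no single hormone class numbered 882 and 902 and were left out. They include doublets, and no doublet caller was run. The kept cells of the libraries shared 18 barcodes, 0.214% and 0.242% of each. Markers of other cells summed to 911 and 953 counts per 1000000 (CPM) for alpha cells, 422 and 533 for delta cells, 613 and 1287 for pancreatic polypeptide cells, 24.1 and 25.6 for endothelial cells, 24.8 and 53 for macrophages, and 6.79 and 12.9 for stromal cells, with imeglimin given first. The delta markers include Pcsk1 and the pancreatic polypeptide markers include Sytl4, genes that insulin cells also express. In insulin cells of 5000 to 15000 UMIs, Pcsk1 had 301 CPM with imeglimin and 316 with vehicle. Sytl4 was found in 62.1% and 82.4% of unthinned insulin cells. These sums are therefore not a measure of RNA from other cells alone. The part of other cells in the differences below was not tested.

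The promoters of 6 genes are printed first, because they hold the DNA letters through which metal, ATF4 with CHOP, and ER stress are known to act. The genes were picked after their values were seen. Each sequence is the 250 bases before the RefSeq start on build GRCm38.p6, written 5′ to 3′ along the gene, with matches on either strand in capitals. Mt2, the second metallothionein of the islet, is at chr8:94172368-94172617 on the plus strand, and its capitals mark TGCACNC or TGCGCNC, the core of the metal response element.

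Mt2: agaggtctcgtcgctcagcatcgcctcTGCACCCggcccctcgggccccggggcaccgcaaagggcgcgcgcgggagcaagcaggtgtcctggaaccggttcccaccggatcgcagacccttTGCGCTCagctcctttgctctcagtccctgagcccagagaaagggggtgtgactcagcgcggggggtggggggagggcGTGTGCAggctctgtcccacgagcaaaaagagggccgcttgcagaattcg

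The stress gene Nupr1 is at chr7:126625471-126625720 on the minus strand, the mitochondrial gene Chchd10 at chr10:75932880-75933129 on the plus strand, and the aspartate aminotransferase gene Got1 at chr19:43524606-43524855 on the minus strand. Their capitals mark TGATGNAA, the element bound by CHOP or other C/EBP proteins paired with ATF4.

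Nupr1: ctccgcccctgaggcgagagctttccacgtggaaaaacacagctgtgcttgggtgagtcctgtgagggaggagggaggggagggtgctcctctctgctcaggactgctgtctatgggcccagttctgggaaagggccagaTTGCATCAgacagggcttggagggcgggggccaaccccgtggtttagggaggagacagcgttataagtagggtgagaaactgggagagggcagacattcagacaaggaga
Chchd10: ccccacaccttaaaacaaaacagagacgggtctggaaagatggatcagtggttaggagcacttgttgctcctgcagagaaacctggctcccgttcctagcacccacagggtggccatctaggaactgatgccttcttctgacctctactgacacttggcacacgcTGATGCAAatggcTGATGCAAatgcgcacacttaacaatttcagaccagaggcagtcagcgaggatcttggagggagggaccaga
Got1: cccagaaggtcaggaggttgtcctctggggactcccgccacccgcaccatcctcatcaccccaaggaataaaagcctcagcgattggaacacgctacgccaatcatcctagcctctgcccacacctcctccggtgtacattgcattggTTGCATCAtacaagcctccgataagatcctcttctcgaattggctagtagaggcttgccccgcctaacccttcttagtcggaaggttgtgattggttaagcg

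Hspa5, which encodes the main ER chaperone BiP, is at chr2:34771840-34772089 on the plus strand, and Creld2, an ER stress gene, is at chr15:88819396-88819645 on the plus strand. Their capitals mark the ER stress element, CCAAT and CCACG with 9 bases between them.

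Hspa5: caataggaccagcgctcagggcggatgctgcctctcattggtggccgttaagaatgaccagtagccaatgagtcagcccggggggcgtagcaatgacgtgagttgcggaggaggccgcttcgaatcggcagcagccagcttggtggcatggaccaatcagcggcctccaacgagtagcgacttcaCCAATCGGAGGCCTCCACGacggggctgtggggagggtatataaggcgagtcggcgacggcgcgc
Creld2: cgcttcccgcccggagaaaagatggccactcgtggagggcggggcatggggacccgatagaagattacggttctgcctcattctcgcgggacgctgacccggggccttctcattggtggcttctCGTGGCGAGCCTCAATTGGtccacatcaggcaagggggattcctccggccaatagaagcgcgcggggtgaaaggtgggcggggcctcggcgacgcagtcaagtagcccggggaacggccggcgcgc

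Mt2 held 3 matches to the metal element forms, Nupr1 and Got1 each 1 match to the ATF4 composite element, and Chchd10 had 2, at bases -85 to -78 and -72 to -65 from its start. Hspa5 and Creld2 each had 1 ER stress element. Among 32851 promoters of the same length, 10.4% held TGCACNC and 12.5% held TGCGCNC, while 1.26% had at least 3 matches to these forms. TGATGNAA occurred in 3.45% of promoters, at least 2 times in 0.0396%, and the ER stress element in 0.113%. Of the genes with the highest ratios named below, 17 had a promoter in the RefSeq table, and 3 of these held TGATGNAA (Chchd10, Got1 and Nupr1). Of the 17 genes with the lowest ratios and a promoter, 0 held it. TGCACNC was found in 5 of the 17 higher and 2 of the 17 lower genes, TGCGCNC in 7 and 1, and the ER stress element in 0 and 0. A gene was counted if any of its promoters matched, whereas the percentages above are of single promoters. The promoters of Mt1 and Trib3, not printed, held 1 metal element match and 0 composite elements, respectively, in the same window. A match is a description of the letters, not a binding site or a cause.

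Across the genome, insulin cells with imeglimin had more transcript of stress regulators, the metallothioneins Mt1 and Mt2 and many ribosomal proteins, and less of several hormone receptors, channels and islet transcription factors and of Ins1. Most genes differed little. Among 5664 genes that reached 20 CPM in the imeglimin or the vehicle cells, the median log2 ratio of imeglimin over vehicle was 0.07, the middle 50% of genes lay between -0.12 and 0.25, and the 5th and 95th percentiles were -0.58 and 0.57. Values are CPM of the summed UMIs, scaled by the trimmed mean of M-values (TMM). A ratio of at least 1.5-fold, used throughout as a size and not as a call of change, was reached upward by 253 genes (4.47%) and downward by 283 (5.0%). A ratio of 2-fold was reached by 48 and 82 genes. The balance depended on the scaling: with CPM computed without hormone and mitochondrial genes, the median of all genes was -0.08 and the split was 130 higher and 457 lower. With the mean of each cell's own CPM it was 172 and 358, and after thinning each cell to 5000 UMIs it was 356 and 238. Ratios below are therefore best read against the median of all genes. Counts of list members past 1.5-fold are best read beside the 4.47% and 5.0% of all genes.

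**Figure D1:**
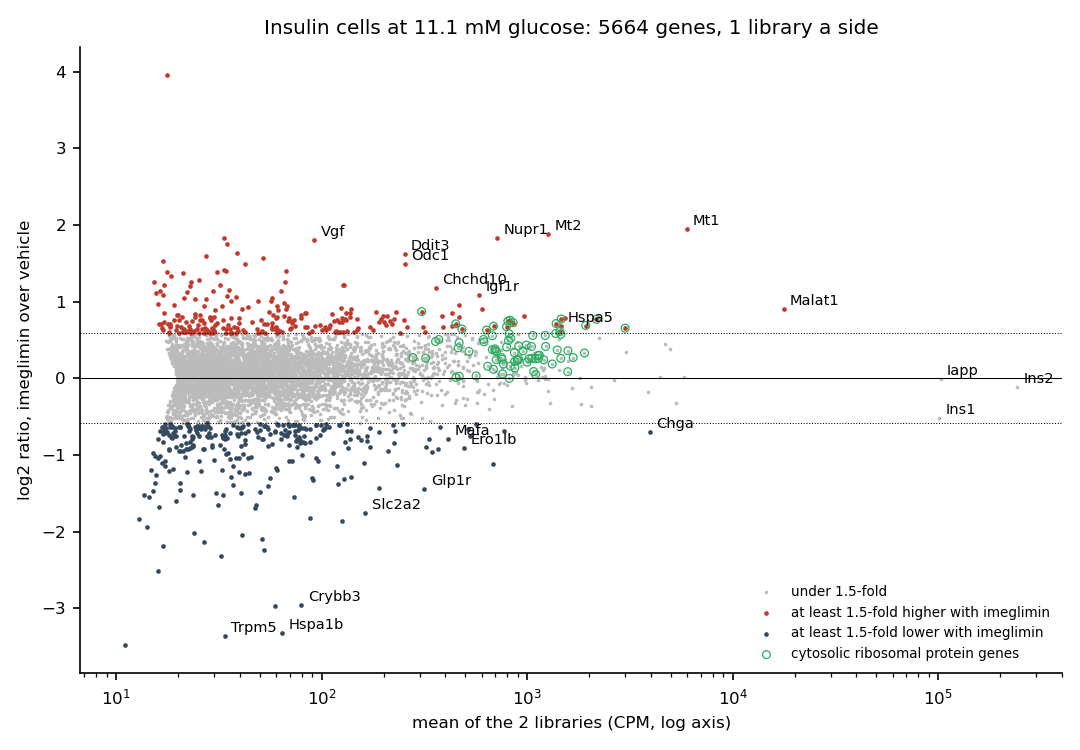
Log2 ratio of imeglimin over vehicle in insulin cells at 11.1 mM (vertical axis) against mean CPM (horizontal log axis) for the 5664 genes compared, 1 point a gene. Red and dark blue points are at least 1.5-fold higher or lower (dotted lines), and green circles are cytosolic ribosomal protein genes. The median lies at 0.07, with Mt1 (1.95) and Nupr1 (1.83) well above the band and Trpm5 (-3.36) and Crybb3 (-2.96) well below it.

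Abundant genes stood higher more often than lower. Of the 194 genes that reached 500 CPM in either, 27 stood 1.5-fold or more above vehicle and 8 below, and of the 1331 that reached 100 CPM, 92 and 72. In CPM, gains over the genes compared summed to 97741 and losses to -90915. Ins1 alone had a difference of -36476 CPM, with 119534 CPM with vehicle and 83058 with imeglimin, and Ins2 one of -19057 CPM, with 252601 and 233545. Both genes were part of the rule that chose the cells. The median share of UMIs from Ins1 and Ins2 was 32.9% with vehicle and 27.5% with imeglimin. In alpha cells, where these UMIs are background, it was 0.366% and 0.291%. In endothelial-like cells, where they are background too, the order was opposite, with 0.272% with vehicle and 0.351% with imeglimin.

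The nuclear RNA Malat1 had the largest gain in CPM, with 12319 with vehicle and 23053 with imeglimin. Its log2 ratio was 0.90, and in cells thinned to 5000 UMIs its median was 54 UMIs with vehicle and 101 with imeglimin. Mt1, described below, had the next largest. Other large gains included Tpt1 and Eif1. Tpt1, a growth-related protein with a translation-controlled mRNA, had 3962 and 5380 CPM, and Eif1, which helps the ribosome choose the start codon, had 1837 and 2635. Scg3, a granin that sorts hormones into granules, had 1121 CPM with vehicle and 1930 with imeglimin. The largest losses after insulin were in Chga, the granin chromogranin A, with 4897 and 3018 CPM, mt-Co1, a mitochondrially encoded subunit of complex IV, with 5880 and 4715, and Iapp, the amylin hormone, with 103336 and 102789. The Iapp ratio was -0.01 and changed sign between scalings.

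Cell by cell, the differences ranged from shifts of nearly the whole population to differences carried by few cells. For this reading 5490 imeglimin and 5071 vehicle cells were thinned to 5000 UMIs, leaving out 214 and 126 shallower cells. The pair share is the percentage of pairs of 1 imeglimin and 1 vehicle cell in which the imeglimin cell had more UMIs, with ties split evenly. The median pair share over all genes compared was 50.3%. It reached 60% for 122 genes (2.15%) and was at or below 40% for 43 genes (0.759%).

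Mt1 had the highest pair share of the genes described here, 88.3%. Its 10th percentile, median and 90th percentile were 12, 41 and 83 UMIs with imeglimin and 0, 5 and 33 with vehicle, and 60.4% of imeglimin cells lay above the vehicle 90th percentile. The distributions thus overlapped mainly in the upper tail of the vehicle cells. Mt2 had a median of 8 and 1 UMIs and a pair share of 83.2%. Ribosomal protein genes had the next pair shares: Rplp1, of the ribosomal stalk, had medians of 12 and 7 UMIs (82.4%), and Rpl41 had 16 and 10 (81.8%). At the low end, the pair share of Chga was 25.3%, with medians of 12 UMIs with imeglimin and 21 with vehicle and 2.0% of imeglimin cells above the vehicle 90th percentile.

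**Figure D2:**
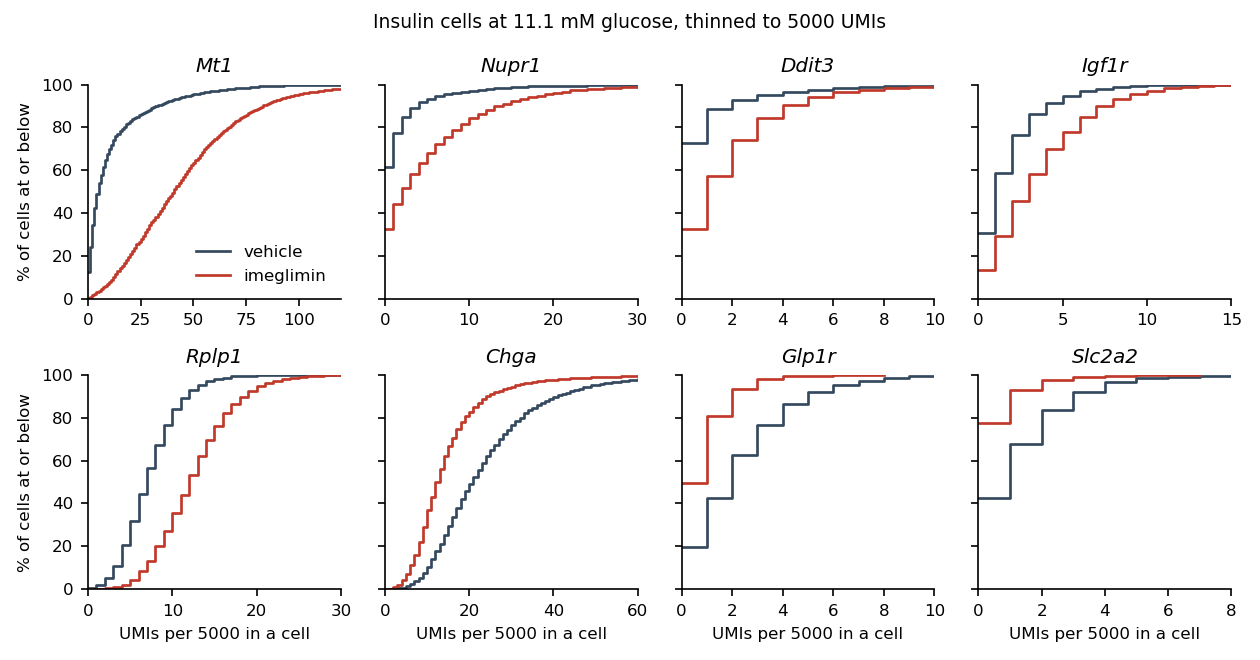
Cumulative percentage of insulin cells (vertical axis) at or below a number of UMIs per 5000 (horizontal axis) for single genes, with 1 line for 5490 imeglimin cells and 1 for 5071 vehicle cells. The Mt1 lines are separated over most of their length, with medians of 41 and 5 UMIs, and the Chga lines run in the opposite order, with medians of 12 and 21.

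Regulators of the integrated stress response stood higher as a list. Of 16 members compared, 8 were at least 1.5-fold higher and 0 lower, and the list median was 0.53 beside 0.07 for all genes. Nupr1, a stress-induced chromatin protein, had 314 CPM with vehicle and 1114 with imeglimin (log2 ratio 1.83, counting interval 1.81 to 1.85). Ddit3, which encodes CHOP, had 125 and 383 CPM (1.62), and Trib3, a pseudokinase that restrains ATF4 and AKT, had 26.1 and 77.2 (1.56). Atf4 itself had 186 and 316 CPM (0.76), and Ppp1r15a, which reverses eIF2 phosphorylation, 50.8 and 87.7 (0.79). These intervals and those below are exact 95% limits that cover counting error only. Over the settings tried, the list median lay between 0.38 and 0.69. The list of serine, one-carbon and asparagine synthesis, which holds Got1, had a median of 0.16. Of its 13 members compared, 2 were at least 1.5-fold higher and 1 lower. Amino acid transporters had a median of 0.01, with 1 of 10 members higher and 1 lower.

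The stress genes differed in many cells rather than in a small group. A Ddit3 UMI was found in 67.4% of thinned cells with imeglimin and 27.3% with vehicle, and in 85.3% and 46.4% of unthinned cells. In endothelial-like cells, which had lower medians of 2820 and 4788 UMIs, the unthinned shares were 29% and 25.9%. In alpha cells, with medians of 5725 and 5674.5 UMIs, they were 44.6% and 14.3%. Nupr1 was found in 67.4% and 38.5% of thinned insulin cells, in 75.9% and 53.4% of unthinned ones, and in 10.1% and 14.6% of endothelial-like cells. At least 5 UMIs of Ddit3 and Trib3 together were carried by 2796 of 5704 imeglimin cells (49.0%) and by 664 of 5197 vehicle cells (12.8%). In the imeglimin library, Trib3 was found in 32.4% of thinned cells with a Ddit3 UMI and in 19.4% of those without. In the vehicle library the shares were 19.7% and 6.45%. Thinned imeglimin cells without a Ddit3 UMI thus held Trib3 about as often as thinned vehicle cells with one. Many cells without a Ddit3 UMI after thinning can hold one at full depth, as the shares of 67.4% and 85.3% with imeglimin show. They are therefore not cells that lack Ddit3.

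ER chaperones and folding enzymes stood moderately higher, with 3 of 26 members at least 1.5-fold higher, 1 lower, and a list median of 0.28. Hspa5 had 1121 CPM with vehicle and 1796 with imeglimin (0.68), Creld2 had 88.1 and 149 (0.75), and Sdf2l1, a partner of BiP, had 300 and 476 (0.67). Manf, a secreted ER stress protein, had 725 and 1079 CPM (0.57), just under 1.5-fold. The member that stood lower was Ero1lb, the beta-cell oxidase that drives disulfide formation in proinsulin, with 645 and 344 CPM (-0.91) and a pair share of 30.8%. Of the ER degradation and sensor genes, 1 of 23 was at least 1.5-fold higher (Derl1, a channel for misfolded proteins, 144 and 246 CPM) and 0 lower, with a median of 0.16. This count is near the 4.47% of all genes.

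Stress regulators and ER chaperones, both higher with imeglimin in sum, were ordered differently across the cells of each library. With imeglimin, cells with more ER chaperone UMIs had fewer stress regulator UMIs, with a Spearman rho of -0.32 over 5490 cells. With vehicle the rho was 0.16 over 5071 cells. In cells of at least 10000 UMIs it was -0.36 and 0.14, and without Nupr1 in the sum it was -0.19 and 0.16. Mt1 and Mt2 against ER chaperones gave -0.40 with imeglimin and -0.05 with vehicle. The ER genes followed each other in both libraries: Hspa5 with Manf had a rho of 0.47 and 0.35. At 3.9 mM, stress regulators against ER chaperones gave -0.21 with imeglimin and 0.06 with vehicle. The cells of each value share a library and the fixed total of 5000 UMIs, in which a gain of one gene leaves less for others, and the values are descriptions with no test.

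Split into 3 groups by ER chaperone UMIs, the imeglimin cells with the fewest ER chaperone UMIs had a median of 15 stress regulator UMIs, the middle group 12, and the group with the most 9. In the vehicle cells the medians were 4, 5 and 6. Nupr1 averaged 7.15, 4.79 and 2.92 UMIs across the imeglimin groups and 0.936, 1.39 and 1.90 across the vehicle groups. Mt1 averaged 56.4, 46.4 and 32.7 UMIs with imeglimin, and 9.82, 12.3 and 12.4 with vehicle. Both genes ran downward across the imeglimin groups and upward across the vehicle groups, where the last pair of Mt1 values was nearly equal, and every imeglimin group stood above every vehicle group. Ins1 averaged 323, 366 and 393 UMIs with imeglimin and 566, 535 and 508 with vehicle, in opposite order. Ins2 averaged 1060, 1052 and 986 UMIs with imeglimin and 1206, 1110 and 1038 with vehicle, and so ran downward in both.

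**Figure D3:**
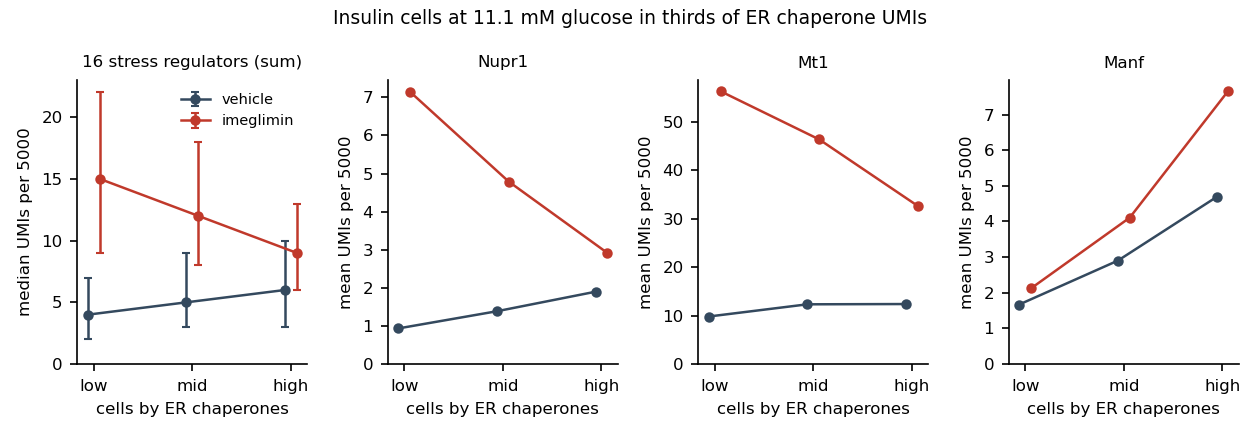
UMIs per 5000 (vertical axes) of the summed stress regulators (median, with bars from the lower to the upper quartile of cells) and of Nupr1, Mt1 and Manf (mean) in insulin cells split into equal groups by ER chaperone UMIs (horizontal axes), for the imeglimin (red) and the vehicle (dark blue) library. Median stress regulator UMIs run 15, 12 and 9 with imeglimin and 4, 5 and 6 with vehicle from the lowest to the highest ER chaperone group.

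Among the 13 metallothioneins and zinc transporters compared, 4 were at least 1.5-fold higher and 1 lower. The list median of -0.03 did not show this and changed sign between settings, from -0.18 to 0.88, while the summed level was 3868 CPM with vehicle and 12128 with imeglimin. Mt1 had 2453 and 9477 CPM (1.95, interval 1.94 to 1.96) and Mt2 had 541 and 1989 (1.88). The zinc exporters Slc30a1 (17.3 and 27.9 CPM) and Slc30a4 (15 and 25.4) stood higher as well, at 0.68 and 0.76. Slc30a8, which loads zinc into insulin granules, stood lower, with 455 and 233 CPM (-0.97) and a pair share of 32.5%. Of the antioxidant and glutathione genes, 1 of 19 was at least 1.5-fold higher (Gsto1, a glutathione transferase, 18.4 and 48.8 CPM) and 2 lower (Hmox1 and Gstm1). Over all genes the shares were 4.47% higher and 5.0% lower. Hmox1, which breaks down haem, had 278 and 103 CPM (-1.44) but a pair share of 49.1%.

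Cytosolic ribosomal proteins stood above the other genes as a group. Of 77 members compared, 71 lay above the median of all genes, 15 reached 1.5-fold upward and 0 downward, and the list median was 0.36 (0.21 to 0.44 over the settings tried). The members ranged from -0.00 for Rpsa to 0.87 for Rpl36a, which had 217 and 396 CPM. Rplp1 had 1606 CPM with vehicle and 2734 with imeglimin (0.77), Rps12 had 1081 and 1847 (0.77), and Rps2 had 1476 and 2376 (0.69). Summed over the list, cells held a median of 373 UMIs per 5000 with imeglimin and 278 with vehicle, with 43.9% of imeglimin cells above the vehicle 90th percentile and a pair share of 80.9%. The sum ran against insulin UMIs across cells, with a rho of -0.33 with imeglimin and -0.47 with vehicle, over cells that share the fixed total.

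Other translation genes were mixed. Initiation factors had a median of 0.09, which turned to -0.06 in CPM without hormone and mitochondrial genes, and 2 of 37 were at least 1.5-fold higher (Eif5, which activates the initiation complex, 420 and 785 CPM, and Eif3c, 240 and 382). That count is near the 4.47% of all genes. Of the cytosolic aminoacyl-tRNA synthetases, which charge tRNAs with amino acids, 3 of 20 were higher and 0 lower, with a median of 0.18. Eprs had 332 and 534 CPM (0.68) and Sars 157 and 253 (0.69), while Mars, the synthetase for methionine, had 31.8 and 23.6 (-0.43). Odc1, the rate-limiting enzyme of polyamine synthesis, had 133 and 374 CPM (1.49), and Sat1, which acetylates polyamines for their breakdown and was more than 10 times higher in endothelial-like cells, had 43.9 and 76.6 (0.80). A gene at each end of the polyamine pathway therefore stood higher.

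Genes of mitochondria were mixed. Nuclear subunits of complex I had a median of 0.31 with 3 of 37 at least 1.5-fold higher, complexes II and III 0.30 with 1 of 13, complex IV 0.41 with 0 of 12, and ATP synthase 0.22 with 2 of 18, and none of these lists had a member 1.5-fold lower. Such small counts are near the 4.47% of all genes, and the lists stood apart from 0.07 by their medians, not by members of large ratio. The 12 mitochondrially encoded subunits had a median of -0.04, between -0.19 and 0.00 over the settings, and 0 members at 1.5-fold in either direction. Uqcrq, a small subunit of complex III, had 314 and 612 CPM (0.96) and a pair share of 72.3%. Ndufa3 and Ndufa5, of complex I, had 46.8 and 87.7 CPM (0.91) and 96.5 and 180 CPM (0.90). Cox7a2l, which joins complexes III and IV, went the other way with 364 and 253 CPM (-0.52). The pair share of the summed list was 73.0% for complex I and 44.3% for the mitochondrially encoded subunits.

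Mitochondrial protein handling was also higher. Of 33 chaperones, proteases and import genes, 5 reached 1.5-fold upward and 0 downward, with a median of 0.33 and a pair share of 75.5% for the sum. Hspa9, the main chaperone of the matrix, had 278 and 489 CPM (0.81), Lonp1, a matrix protease, 42.8 and 79.4 (0.89), and Timm8b, an import chaperone, 167 and 285 (0.77). Mitochondrial ribosomal proteins had 5 of 67 members at least 1.5-fold higher, beside 4.47% of all genes, and 0 lower, with a median of 0.22. The 3 mitochondrial aminoacyl-tRNA synthetases compared had a median of -0.07, with 0 at 1.5-fold in either direction. Chchd10, a protein of the cristae junctions, had 221 and 500 CPM (1.17) and a pair share of 69.7%. Genes of the citric acid cycle and its shuttles had a median of 0.12, which turned to -0.03 in CPM without hormone and mitochondrial genes, with 0 of 30 higher and 1 lower, the pyruvate carboxylase Pcx, which feeds the cycle (38 and 20.4 CPM, -0.90).

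**Figure D4:**
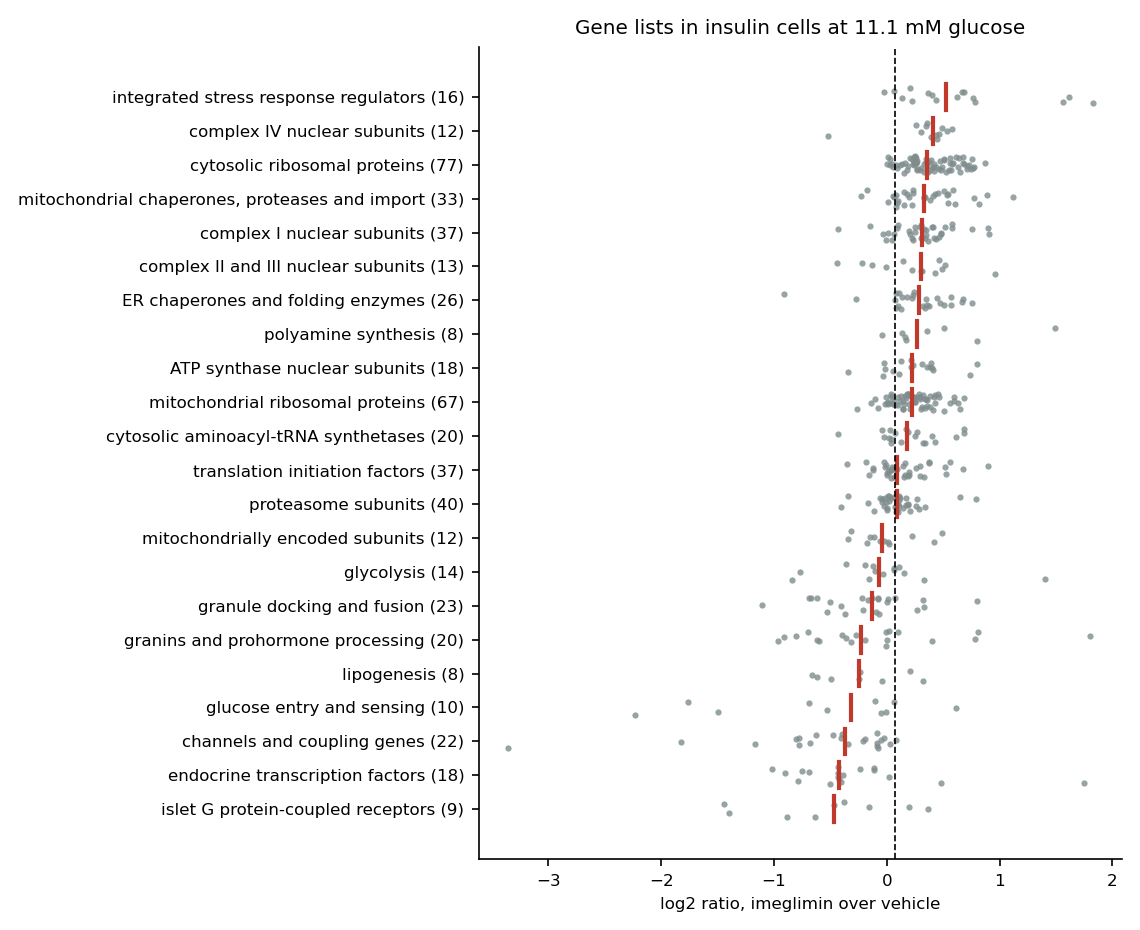
Median log2 ratio of imeglimin over vehicle in insulin cells (horizontal axis) for a selection of the 48 gene lists (vertical axis), as red bars. Each member is 1 grey point, and a dashed line marks the median of all genes, 0.07. Numbers in brackets are the members compared. Among the lists drawn, stress regulators (0.53), complex IV (0.41) and cytosolic ribosomal proteins (0.36) lie to the right. G protein-coupled receptors (-0.47), endocrine transcription factors (-0.43) and channels (-0.37) lie to the left. Short lists not drawn include genes disallowed in beta cells (0.53 over 2 members), complex I assembly factors (0.48 over 3) and immature and dedifferentiated beta-cell genes (-0.72 over 3). Of the last, 2 members were at least 1.5-fold lower, and all 3 were more than 10 times higher in another class.

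On the lower side, receptors through which hormones and nutrients act on the islet stood out. Of 9 members compared, 4 were at least 1.5-fold lower and 0 higher, with a median of -0.47. Glp1r, the receptor for the incretin GLP-1, had 463 CPM with vehicle and 170 with imeglimin (-1.45, interval -1.48 to -1.42). Its UMIs were found in 50.5% of thinned cells with imeglimin and 80.3% with vehicle, and in 77.4% and 93.1% of unthinned cells, beside 0.771% and 3.08% of alpha cells, whose medians were 5725 and 5674.5 UMIs. Ffar1, the receptor for long fatty acids, had 79.4 and 30.0 CPM (-1.40), and Gipr, the receptor for the other incretin, had 30.6 and 16.5 (-0.89). The pair share of Glp1r, 26.2%, shows that vehicle cells were higher in most untied pairs.

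Channels and coupling genes had 8 of 22 members at least 1.5-fold lower and 0 higher, with a median of -0.37. Trpm5, a calcium-activated cation channel, had 61.5 and 5.99 CPM (-3.36, interval -3.50 to -3.22), and its UMIs were found in 2.77% of thinned imeglimin cells and 22.9% of vehicle cells, or 6.87% and 47.0% of unthinned ones. Alpha cells had Trpm5 in 0 of 778 cells with imeglimin, which allows a share of cells with a UMI of up to 0.386% by a floor of 3 counts and 0.473% by the exact 95% limit, and in 2 of 552 with vehicle. Kcnk16, a potassium channel of the islet, had 82.6 and 36.6 CPM (-1.17), and Camk2b, a calcium-activated kinase, had 118 and 68.7 (-0.78).

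Endocrine transcription factors had 5 of 18 members at least 1.5-fold lower and 1 higher, with a median of -0.43. Mafa, which drives insulin transcription in mature beta cells, had 522 and 301 CPM (-0.79), Isl1 had 207 and 123.1 (-0.75) and Pdx1 had 171 and 106.1 (-0.69). The other two at 1.5-fold were Myt1 (-1.01) and Rfx6 (-0.90). Myt1 was of low level, at 21.8 and 10.8 CPM. The member that stood higher was Nr4a2, a nuclear receptor that is also an immediate early gene, at 15.9 and 53.1 CPM (1.74). Their sum had a pair share of 35.6%, so the cells overlapped widely.

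Glucose handling stood lower at the entry step. Of 10 genes of glucose entry and sensing, 4 were at least 1.5-fold lower and 1 higher, with a median of -0.32. Slc2a2 had 252 CPM with vehicle and 74.2 with imeglimin (-1.76), and was found in 22.5% and 57.3% of thinned cells with imeglimin and vehicle, in 41.4% and 76.6% of unthinned ones, and in 0.386% and 2.54% of alpha cells. Mlxipl, which encodes the glucose-responsive factor ChREBP, had 86.1 and 18.3 CPM (-2.24), and Txnip, a target of ChREBP, had 59.9 and 21.2 (-1.50). The member that stood higher was Slc2a1, the widely expressed glucose transporter, at 40.4 and 61.6 CPM (0.61). Txnip and Slc2a1 were more than 10 times higher in endothelial-like cells than in insulin cells. Core glycolysis had a median of -0.07, which turned to 0.05 in thinned cells, with 1 of 14 members higher and 2 lower. Ldha, which reduces pyruvate to lactate and was more than 10 times higher in endothelial-like cells, had 36.8 and 97.2 CPM (1.40), Aldoc, an aldolase, had 29.3 and 16.4 (-0.84), and Gpd2, the mitochondrial end of the glycerol phosphate shuttle, had 97.3 and 57.0 (-0.77). Acly, which makes cytosolic acetyl-CoA for lipid synthesis, had 630 and 397 CPM (-0.67).

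In the secretory granule, granins and prohormone enzymes were split, with 3 of 20 at least 1.5-fold higher, 6 lower, and a median of -0.23. Vgf, a granin-like neuropeptide precursor, had 41.2 and 143 CPM (1.80), Pam, which amidates peptides, 702 and 1232 (0.81), and Scg3 had a ratio of 0.78. On the other side, Chga had -0.70, and Pcsk1n, an inhibitor of prohormone convertase 1, had 679 and 447 CPM (-0.60). Among granule docking genes, 1 of 23 was higher (Syt4, a synaptotagmin that sets the calcium sensitivity of release, 341 and 594 CPM) and 4 lower, with Sytl4, the docking protein granuphilin, at 220 and 102 CPM (-1.11). All genes compared had 4.47% higher and 5.0% lower. Ucn3, a peptide hormone of mature beta cells, had 198 and 114 CPM (-0.80).

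Several further genes had large ratios. Igf1r, the receptor for insulin-like growth factor 1 and a member of the insulin receptor signalling list, had 373 and 793 CPM (1.09) with a median of 3 UMIs per 5000 with imeglimin and 1 with vehicle. Pla2g12a, a secreted phospholipase, had 76.1 and 177 CPM (1.22), Cox6a2, a striated-muscle form of a complex IV subunit, 77.6 and 179 (1.21), and Acsl4, which activates polyunsaturated fatty acids, 37.8 and 75.8 (1.00). On the lower side, Crybb3, a lens crystallin gene, had 141 and 18.2 CPM (-2.96), Ddc, which makes dopamine and serotonin, 196 and 54.1 (-1.86), Fkbp1b, a regulator of the ryanodine receptor counted above with the coupling genes, 136 and 38.5 (-1.82), and Ece1, an endothelin-converting enzyme, 184 and 73.8 (-1.32). These lower genes had pair shares of 40.6%, 32.4%, 34.9% and 34.6%. Crybb3 had a UMI in 10.3% of unthinned imeglimin cells and 37.5% of vehicle cells, beside 1.67% and 8.88% of alpha cells.

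Some of the largest ratios rested on few cells. The near-identical genes Hspa1a and Hspa1b, inducible heat shock proteins whose reads cannot be split with certainty, had 105 and 13.4 CPM (-2.97) and 117 and 11.7 (-3.32), and pair shares of 49.1% and 49.4%. Cells with at least 5 UMIs of the pair, 147 of 5197 with vehicle (2.83%) and 73 of 5704 with imeglimin (1.28%), held 96.1% and 69.8% of all their UMIs. Hspa8, the constitutive heat shock protein, had 745 and 1032 CPM (0.47), and 0.60 without those cells. Hmox1 kept a ratio of -1.10 without them, with 220 and 102 CPM. Cells with at least 5 UMIs of the interferon-induced genes Rsad2, Ifit1 and Ifit3 were 201 (3.52%) with imeglimin and 74 (1.42%) with vehicle. The highest and lowest genes of all in size, Sema6a (2.15 and 33.2 CPM) and Col6a3 (20.3 and 1.82 CPM), were more than 10 times higher in endothelial-like and stromal cells. Of the genes 1.5-fold higher and lower, 20 and 27 were of this kind, and the part of RNA from other cells in them was not tested.

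Ratios were read again in cells of different depth. Mt1 had 2.38, 2.01 and 1.91 in cells with under 5000, 5000 to 15000 and over 15000 UMIs, and Nupr1 had 1.80, 1.87 and 1.85. Glp1r had -1.42, -1.47 and -1.40. Trpm5 had -1.07, -3.13 and -3.67 and Crybb3 had -1.47, -2.87 and -3.01, smaller in the shallowest cells. Ubb, a ubiquitin gene, had 0.83, -0.24 and -0.40 and so changed sign. The ribosomal list, however, had medians of 0.77, 0.46 and 0.32, beside 0.11, 0.10 and 0.09 for all genes. Malat1 had 0.19, 0.86 and 0.99, and Igf1r had 0.27, 1.10 and 1.14, so both ratios were larger in the deeper cells. The shallowest group held 214 imeglimin cells (3.75%) and 126 vehicle cells (2.42%), with median mitochondrial shares of 3.49% and 5.30%.

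The same genes were set beside the 3.9 mM pair of libraries. There 804 of 5969 genes compared reached 1.5-fold upward with imeglimin (13.5%) and 681 downward (11.4%). Depth differed more in that pair: 21.5% of imeglimin insulin cells and 5.19% of vehicle insulin cells had under 5000 UMIs, and the limit on insulin UMIs had more cells near it, with 379 and 272 cells at 3 to 4% and 394 and 357 at 4 to 5%. Of the 253 genes higher at 11.1 mM, 64 were higher by this size at 3.9 mM and 26 were lower. Of the 283 lower genes, 160 were lower and 11 higher. Over 5281 genes compared in both pairs, which share no library, the log2 ratios had a Pearson r of 0.37 and a Spearman rho of 0.30 across genes, which are not independent. Differences between the glucose levels were not tested, as each has 1 library a condition.

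Metallothionein genes stood higher at both glucose levels, with Mt1 at 1.95 and 0.79 and Mt2 at 1.88 and 1.16, at 11.1 and 3.9 mM. Crybb3 stood lower at both, at -2.96 and -3.55, as did Glp1r, at -1.45 and -2.18. The lists differed. For stress regulators the median was 0.53 at 11.1 mM and 0.06 at 3.9 mM, for cytosolic ribosomal proteins 0.36 and 0.12, and for complex IV 0.41 and 0.06. The median of all genes at 3.9 mM is not given here, so the list medians at that level lack this reference. Slc2a2 had -1.76 at 11.1 mM and -0.33 at 3.9 mM, where its vehicle level was 42.0 CPM beside 252. Ero1lb had -0.91 and 0.06, and Chga had -0.70 and 0.19.

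Alpha cells of the same 2 libraries, 778 with imeglimin and 552 with vehicle, gave a further reading. Of 3260 genes that reached 50 CPM there, 217 had ratios above 1.5-fold upward (6.66%) and 163 downward (5.0%). Of the genes higher in insulin cells, 135 were measured in alpha cells, where 65 were higher and 2 lower. Of the lower genes, 128 were measured, with 69 lower and 1 higher. Mt1 had 548 CPM with vehicle and 4186 with imeglimin in alpha cells (2.93), and Ddit3 had 30.7 and 171 (2.48). List medians in alpha cells cover only members that reached 50 CPM there, and the median of all genes in alpha cells is not given here. The ribosomal list had 0.31 over 77 members and complex I 0.27 over 34, close to the 0.36 and 0.31 in insulin cells. ER chaperones had 0.03 over 20 members beside 0.28, and stress regulators 1.02 over 9 members beside 0.53. Igf1r and Tenm4, a cell adhesion protein, which were higher in insulin cells (1.09 and 1.49), had -0.49 and -1.11 in alpha cells, where their levels were low, at 55.3 and 39.4 CPM and at 25.2 and 11.6. Delta cells were fewer, 164 and 159, with 231 of 3547 genes 1.5-fold or more upward (6.51%) and 179 downward (5.05%). In them Mt1 had 768 CPM with vehicle and 2679 with imeglimin (1.80), Ddit3 had 69 and 179 (1.37), and Igf1r, as in insulin cells, stood higher, at 122 and 254 (1.06). Insulin, alpha and delta cells come from the same libraries, so these readings are not independent of each other.

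**Figure D5:**
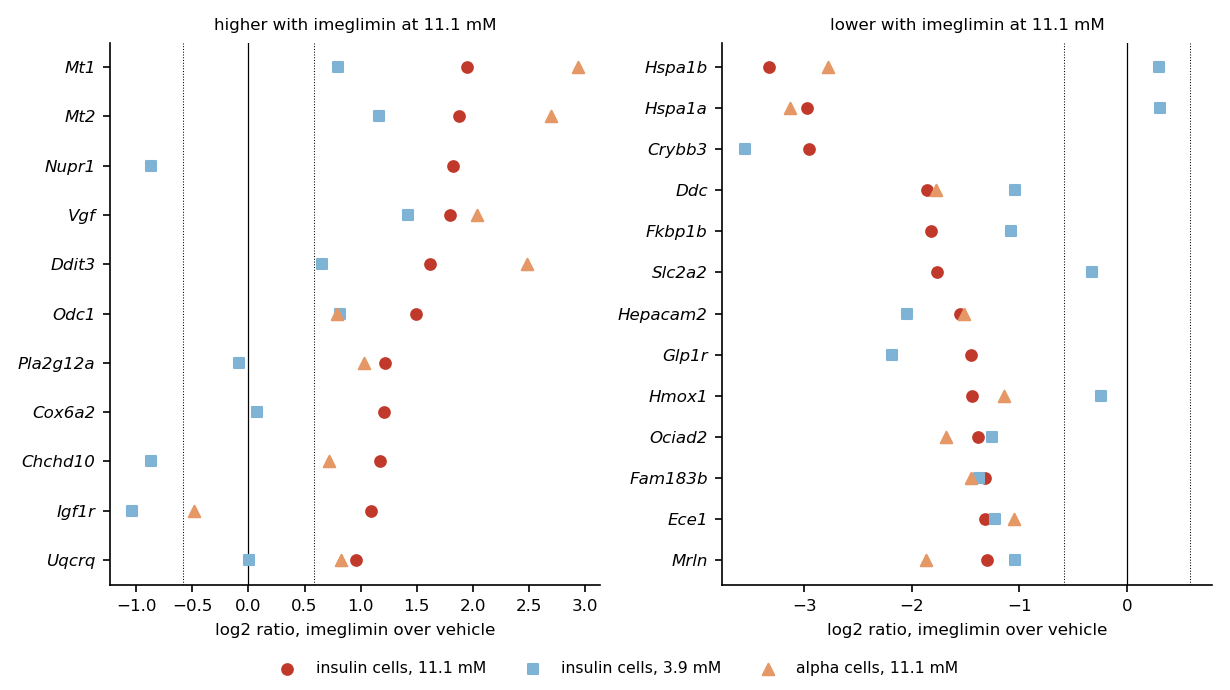
Log2 ratio of imeglimin over vehicle (horizontal axes) for genes higher (left) and lower (right) in insulin cells at 11.1 mM, 1 row a gene, with circles for insulin cells at 11.1 mM, squares for insulin cells at 3.9 mM and triangles for alpha cells at 11.1 mM where the gene reached 50 CPM. Mt1 is above 0 in all of them (1.95, 0.79 and 2.93), while Igf1r is above 0 in insulin cells at 11.1 mM (1.09) and below 0 at 3.9 mM (-1.03) and in alpha cells (-0.49).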

How the data were processed

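Islet cells were captured with 10x Genomics Next GEM 3′ v3.1 chemistry, per the labels' protocols. The submitters' processing notes name Cell Ranger 6.0.2 and mm10, and the authors deposited matrices of raw UMI counts per gene and barcode. The 11.1 mM libraries held 8935 barcodes and 106092232 UMIs with imeglimin and 8073 and 103507322 with vehicle. A barcode was kept if it had at least 1000 UMIs and 500 genes and no more than 20% of its UMIs from mitochondrial genes. UMIs were summed over the insulin cells of each library and scaled by TMM over the sums of the 4 libraries (edgeR 4.0.16). Ratios carry exact 95% binomial intervals, which cover counting error only. With 1 library a condition no test was run. Other classes were called from marker lists, with alpha cells having Gcg at least 2% of UMIs. Genes were named by rank of ratio (20 highest and 20 lowest among genes that reached 50 CPM in either and differed 1.5-fold the same way under 4 readings), by CPM gained or lost (12 each), by pair share (12 each), and up to 6 from each of 48 lists; hormones that chose the cells, unnamed gene models and genes over 10 times higher in another class were left out of the ranks. Ins1 and Ins2, Sema6a, Col6a3, Ifit1 and Ifit3, given outside this rule, and the 6 printed promoters were chosen after their values were seen. The members and lists were chosen with earlier results of these data known. The procedures were tested on counts simulated from the 11.1 mM vehicle profile, with known changes in some genes and counting error only. Such counts hold no library effect and no differences between cells. Alternatives were plain CPM, DESeq2 1.42.0 size factors, other filters, cell limits and depths. Not every gene named by the rule is reported here.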

Additional observations from a re-analysis of the deposited data

Results flagged for a closer look

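For 6 genes named in insulin cells the ratio of imeglimin over vehicle was at least 1.5-fold in opposite directions at the 2 glucose levels. They were sought among the genes ranked by ratio, CPM or pair share. Of all 253 genes higher at 11.1 mM, 26 were at least 1.5-fold lower at 3.9 mM. Among all genes compared at 3.9 mM, 681 of 5969 (11.4%) were lower by this size. The difference between the levels was not tested, since each condition has 1 library. Nupr1 had a log2 ratio of 1.83 at 11.1 mM (314 CPM with vehicle, 1114 with imeglimin) and -0.87 at 3.9 mM (1868 and 1025), so its highest level was in the vehicle library at 3.9 mM. Chchd10 had 1.17 (221 and 500 CPM) and -0.87 (689 and 378), with the same order of libraries. Igf1r had 1.09 (373 and 793 CPM) and -1.03 (286 and 140), with its highest level in the imeglimin library at 11.1 mM. Tenm4 had 1.49 (22.2 and 62.1 CPM) and -0.91 (61.6 and 32.9). Angptl6, an angiopoietin-like secreted protein, had 1.14 (39.7 and 87.6 CPM) and -0.59 (170 and 113). Tmem97, the sigma-2 receptor of the ER, had 1.05 (24.7 and 51.4 CPM) and -0.94 (49.3 and 25.8). In alpha cells at 11.1 mM the ratios of Nupr1, Chchd10, Angptl6 and Tmem97 were 0.95, 0.72, 1.12 and 0.65, and those of Igf1r and Tenm4 were -0.49 and -1.11. Of these, only Chchd10 and Igf1r reached 50 CPM in alpha cells.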

How the results depend on the processing

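The counts of 253 higher and 283 lower genes became 130 and 457 when hormone and mitochondrial genes were left out of the CPM totals. A minimum of 100 CPM gave 92 and 72, and a minimum of 5 CPM gave 479 and 620. The remaining settings gave 172 to 356 higher and 238 to 358 lower; 2 of them, TMM over the 2 sums and leaving out cells with at least 5 Hspa1a and Hspa1b UMIs, were chosen after seeing the data. Of 151 named genes past 1.5-fold, 128 were still past it in the same direction under that scaling, 143 with the mean of per-cell CPM and 144 after thinning. Thinning to 3000 in place of 5000 UMIs moved the pair share of 294 of 295 named genes by under 5 points. No paired analysis was possible because each condition has 1 library, and for the same reason leaving out a replicate was not run. The comparison describes 2 libraries: an effect of the library cannot be told apart from that of imeglimin, intervals hold counting error only, and genes near 20 CPM average under 1 UMI a cell.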
